A study of Mus musculus with 6 samples.

Results

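Sox9, Runx1, Zeb2, Twist2 and Snai2 transcripts fell in cardiac fibroblasts in which Cre recombinase had been used to delete Tet3, to between 45.1% and 73.5% of the control level. These genes belong to a list of 10 transcription factors of mesenchymal and osteochondrogenic (bone- and cartilage-forming) cells, which also holds Twist1, Snai1, Zeb1, Runx2 and Scx. None of these other 5 genes passed the test. In each of the 4 pairs of close relatives on the list, Twist1 and Twist2, Snai1 and Snai2, Zeb1 and Zeb2, and Runx1 and Runx2, 1 gene fell and the other did not pass the test. Of all 12862 genes tested, 51.2% passed in either direction and 25.7% were lower, so 5 calls among 10 genes, or 1 call in a pair, are near the share of genes called at large. The list was matched by gene symbol to a deposited table of 22063 genes, which held all 10, and all 10 had enough counts to be tested. In a bulk sample, fewer cells that express a gene and less RNA of that gene per cell cannot be told apart.

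The fibroblasts were primary cultures from the hearts of mice with floxed Tet3 alleles (Tet3 f/f), and the TET3 enzyme oxidises the methyl group of methylated cytosines. The control group, called GFP here, received an adenovirus coding for green fluorescent protein and has the genotype label Control. The group called CRE received an adenovirus coding for Cre recombinase, which cuts out DNA between loxP sites, and has the genotype label Tet3 knockout. Each group held 3 libraries. Both groups carried the floxed alleles, both received a virus and both were exposed to TGF-β, which drives fibroblasts towards a contractile, matrix-producing state, so all values describe treated cells. A change due to Cre protein itself cannot be told apart from a change due to the deletion. The mice were on a C57BL/6 J background, and their age is not given in the sources used here. The study describes its replicates as biological, without saying whether each library came from a separate animal or culture, so all p-values measure the spread between these libraries.

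Total gene counts were between 17002126 and 20343590 per library, and 3 counts corresponded to between 0.156 and 0.187 CPM (counts scaled to the library size after TMM adjustment, which sets the bulk of genes level between libraries). Tet3 itself fell by 0.72 ± 0.08 (SE) on the log2 scale, to 60.8% of the control level (adjusted p = 5.36e-05, edgeR). Fibroblast genes were the most abundant of the 7 cell type marker lists examined, with a summed level of 37433 to 38762 CPM in GFP and 20601 to 22677 CPM in CRE, and 8 of its 9 genes fell. All 10 endothelial genes were detected, led by Cdh5 (VE-cadherin), their sum was 411.9 to 455.7 CPM in GFP and 197.2 to 228.2 CPM in CRE, and 9 of 10 fell. The list of smooth muscle and pericyte genes, led by Smtn, summed to 174.7 to 194.4 CPM against 143.1 to 163.5 CPM, with 5 lower and 1 higher of 10. The epicardial and mesothelial list, led by Aldh1a2, summed to 143.7 to 163.6 CPM against 99.8 to 106.4 CPM, with 2 lower and 3 higher of 6 tested. Blood and macrophage genes, led by Lyz2, summed to 33.6 to 36.6 CPM against 20.9 to 25.0 CPM, with 2 lower of 5 tested, and the pan-leukocyte gene Ptprc stayed at or under 10 counts in every library. Schwann cell genes summed to 5.92 to 7.22 CPM against 4.59 to 4.78 CPM. Cardiomyocyte genes, led by Tnnt2, reached at most 1.18 CPM, none had enough counts to be tested and Myh6 was at 0 in every library. Except for the cardiomyocyte list, all these summed levels were lower in every CRE library than in every GFP library. So were the 5 factors that fell. A sum follows its most abundant genes. Aldh1a2, with means of 145.5 CPM in GFP and 93.1 CPM in CRE, made up most of the epicardial and mesothelial sum. The median log2 fold change of that list was 0.41. Among all tested genes 25.7% were lower and 25.5% higher. The part of these cell types in the changes was not tested.

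The 10 factors act at the border between connective tissue and other fates. TWIST1, TWIST2 and SCX (scleraxis) are basic helix-loop-helix proteins, which bind E-box DNA as dimers with E proteins. SNAI1, SNAI2, ZEB1 and ZEB2 are zinc finger repressors that silence epithelial genes during epithelial to mesenchymal transition. RUNX1 and RUNX2 bind DNA through a Runt domain together with CBFβ, RUNX2 being the master regulator of osteoblasts, SOX9 is the HMG-box factor that directs cartilage formation, and SCX marks tendon progenitors.

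Of the 10 genes, 5 fell, 0 rose and 5 were not called, a call being a Benjamini-Hochberg adjusted p under 0.05 in the quasi-likelihood test of edgeR. Over all 12862 genes tested, 25.7% were lower and 25.5% higher in CRE, or 51.2% in either direction. None of the 10 was higher even at an unadjusted p under 0.05, and DESeq2 and limma-voom also called 0 higher. The median log2 fold change was -0.46 over the 10 genes, 0.0052 over all tested genes and -0.04 over the 1080 tested genes that the table annotates as transcription factors, of which 26.5% were lower and 19.3% higher. In 7 of the 10 genes every CRE library lay below every GFP library, in 0 every CRE library lay above, and in 3 the groups overlapped. Over all tested genes 29.6% lay below and 30.0% above, so that 59.6% did not overlap. At a fold change under 0.66 and p under 0.05 before adjustment, the cut-off named in the methods of the study, 3 of the 10 genes were lower (Sox9, Runx1 and Zeb2), beside 10.3% of all tested genes. Ranked by log2 fold change from the lowest among the 1080 factors, Sox9 was at place 35, Runx1 at 80, Zeb2 at 110, Twist2 at 162 and Snai2 at 194. With library size alone in place of trimmed mean (TMM) scaling, the median of all genes moved up by 0.16, the same 5 genes fell, and Twist1 and Zeb1 were called higher.

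**Figure D1:**
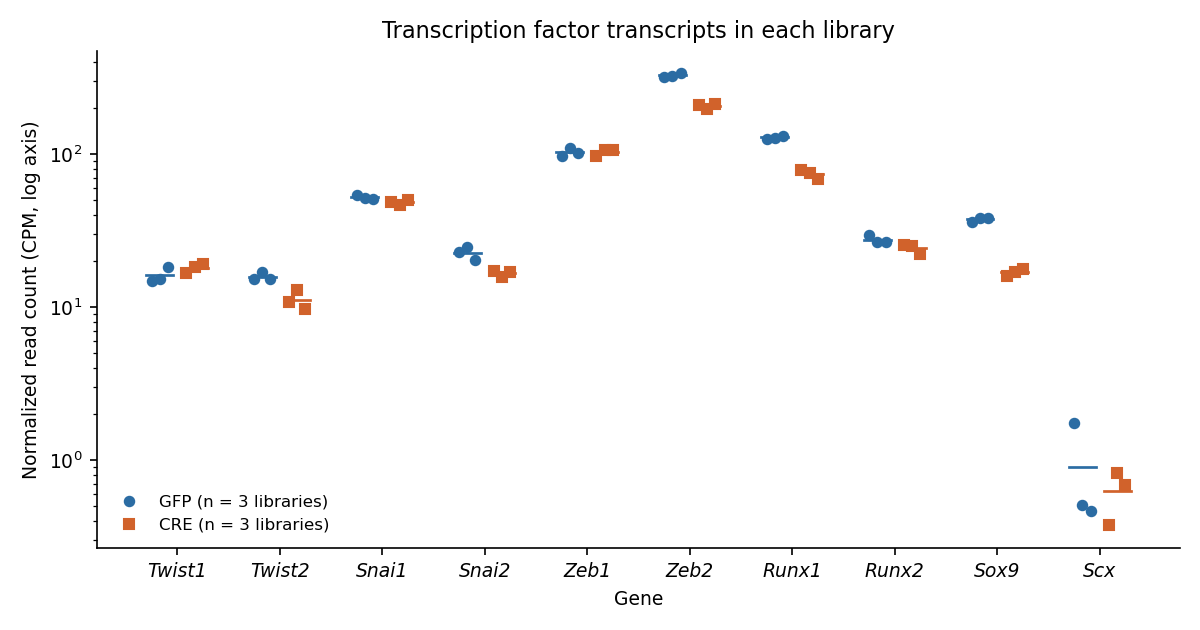
The normalized level in CPM (vertical axis, log scale) is plotted for each of the 10 genes (horizontal axis), with GFP libraries as circles, CRE libraries as squares and a line at each group mean of 3 libraries. For Sox9, Runx1, Zeb2, Twist2 and Snai2 all CRE points lie below all GFP points, whereas the points of Twist1, Zeb1 and Scx overlap.

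**Figure D2:**
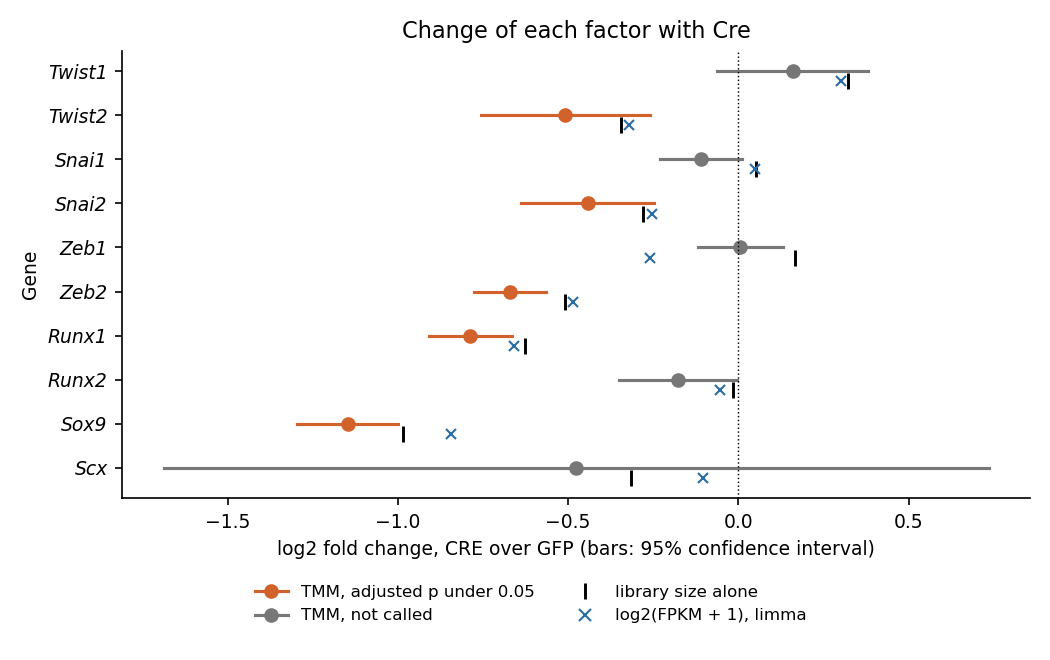
The log2 fold change of CRE over GFP (horizontal axis) is plotted for each of the 10 genes as a point with its 95% confidence interval under TMM scaling, coloured where the gene was called and grey where not, with a tick for the value with library size alone and a cross for that from log2(FPKM + 1). Sox9 lies furthest to the lower side at -1.15, the intervals of Twist1, Snai1, Zeb1 and Scx include 0, and the cross of Zeb1 lies below its interval.

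Twist2 fell and its relative Twist1 did not pass the test. Twist2 (ENSMUSG00000007805, GRCm38 chr1:91801461-91848028, plus strand) stood at 15.3, 17.02 and 15.3 CPM in GFP replicates 1 to 3 and at 10.9, 12.9 and 9.77 CPM in the CRE replicates. The highest CRE library lay below the lowest GFP library. The group means were 15.9 ± 0.989 and 11.2 ± 1.59 CPM (SD, n = 3). The log2 fold change was -0.51 ± 0.11 (SE; adjusted p = 0.00351, edgeR). Twist1 (ENSMUSG00000035799, chr12:33957671-33959829, plus strand) stood at 14.8, 15.3 and 18.4 CPM in GFP and at 16.8, 18.3 and 19.2 CPM in CRE. Its groups overlapped, since GFP replicate 3 was above CRE replicates 1 and 2. The log2 fold change of Twist1 was 0.16, with a 95% confidence interval of -0.06 to 0.38 (adjusted p = 0.208). Without GFP replicate 3 it was 0.26 and Twist1 was called higher (adjusted p = 0.0496), as it was with library size alone.

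Because the relatives resemble each other, their coding sequences were compared. A stretch of 120 coding bases from the TWIST, SNAIL and RUNX pairs is shown with capitals at the bases that differ. Each stretch was chosen as the one with the most identical bases when both coding sequences were aligned without gaps. Its identity is therefore the highest in its pair and not that of the whole coding sequence. The stretches shown lie where the DNA-binding domains of the proteins are encoded. For TWIST the stretch codes for the basic helix-loop-helix domain and 108 of 120 bases (90.0%) were identical, at chr12:33958298-33958417 for Twist1 and chr1:91801809-91801928 for Twist2, both exonic and on the plus strand. For SNAIL it codes for zinc fingers, with 101 identical bases (84.2%), at chr2:167539053-167539172 for Snai1 and chr16:14707114-14707233 for Snai2, plus strand. For RUNX it codes for the Runt domain, with 101 identical bases (84.2%), at chr16:92695497-92695616 for Runx1 and chr17:44735246-44735365 for Runx2, minus strand. In the ZEB pair, whose stretch is not shown, 106 of 120 bases (88.3%) were identical. The sequences are those of GENCODE M21 transcripts (build GRCm38), read 5′ to 3′ along the gene.
Twist1: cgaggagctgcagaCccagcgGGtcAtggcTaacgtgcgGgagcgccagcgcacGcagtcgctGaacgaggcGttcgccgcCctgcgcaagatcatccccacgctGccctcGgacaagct
Twist2: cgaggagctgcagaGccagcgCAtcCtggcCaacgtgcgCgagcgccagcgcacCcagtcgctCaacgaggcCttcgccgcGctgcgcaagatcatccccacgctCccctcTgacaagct
Snai1: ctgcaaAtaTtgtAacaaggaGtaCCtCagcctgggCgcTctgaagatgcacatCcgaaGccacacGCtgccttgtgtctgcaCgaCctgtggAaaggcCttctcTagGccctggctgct
Snai2: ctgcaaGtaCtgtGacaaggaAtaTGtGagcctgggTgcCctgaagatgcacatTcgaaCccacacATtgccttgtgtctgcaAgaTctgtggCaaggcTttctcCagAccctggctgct
Runx1: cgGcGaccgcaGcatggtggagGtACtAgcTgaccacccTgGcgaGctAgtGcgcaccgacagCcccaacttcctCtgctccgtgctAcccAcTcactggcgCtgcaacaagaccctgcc
Runx2: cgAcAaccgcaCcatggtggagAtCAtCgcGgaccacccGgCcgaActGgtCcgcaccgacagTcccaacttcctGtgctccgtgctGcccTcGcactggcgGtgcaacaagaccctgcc
The capitals are spread along each stretch. Over all annotated transcripts, the longest identical run was 23 bases between Twist1 and Twist2, 23 between Snai1 and Snai2, 35 between Zeb1 and Zeb2 and 26 between Runx1 and Runx2. How many reads matched both relatives of a pair was not tested.

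The balance within each pair was then followed as the ratio of counts of both relatives in the same library, a measure that library scaling cannot alter. The Twist1 to Twist2 ratio was 0.967, 0.897 and 1.20 in GFP and 1.55, 1.42 and 1.96 in CRE. On the log2 scale its mean rose from 0.02 ± 0.22 to 0.70 ± 0.24 (SD, n = 3), a difference of 0.68 ± 0.19 (SE) or 1.60-fold. Twist1 and Twist2 counts were thus about equal in the control libraries, and Twist1 counts exceeded those of Twist2 in every CRE library. The Snai1 to Snai2 ratio was 2.37, 2.08 and 2.50 in GFP and 2.81, 2.94 and 2.96 in CRE, a log2 difference of 0.33 ± 0.08. The Zeb1 to Zeb2 ratio was 0.303, 0.336 and 0.304 in GFP and 0.466, 0.543 and 0.4998 in CRE, a log2 difference of 0.68 ± 0.08. The Runx1 to Runx2 ratio moved the other way, from 4.28, 4.83 and 4.99 to 3.09, 3.01 and 3.13, a log2 difference of -0.61 ± 0.07. In all 4 pairs the groups did not overlap. The two-sided exact permutation p was 0.1 for each pair, also after adjustment over the 4 pairs, and 0.1 is the smallest value that 3 libraries against 3 allow, so the design could not reach 0.05. The Zeb1 to Zeb2 difference was smaller, 0.22, when FPKM was used in place of counts.

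**Figure D3:**
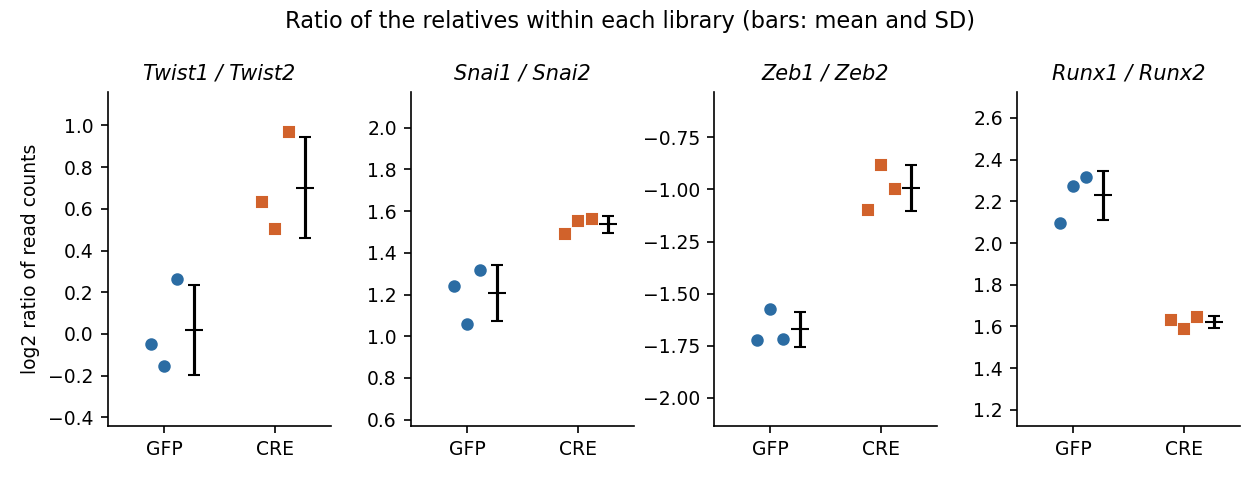
For each of the 4 pairs the log2 ratio of read counts (vertical axis) is plotted for each library, GFP as circles and CRE as squares, with bars for the group mean and SD of 3 libraries; each panel has its own vertical range. CRE libraries sit above GFP libraries for Twist1 to Twist2, Snai1 to Snai2 and Zeb1 to Zeb2, and below them for Runx1 to Runx2.

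Genes for the partners of the TWIST proteins fell. All 3 genes for E proteins, with which TWIST proteins and SCX form dimers, were lower in CRE. Among all tested genes 25.7% were lower and 25.5% higher, and these shares stand beside the counts of every list below. The lists were chosen with earlier results of these data known. Tcf4 (E2-2) stood at 146.4, 151.4 and 142.5 CPM in GFP and at 76.6, 74.0 and 73.1 CPM in CRE, a log2 fold change of -0.98 ± 0.05 (SE; adjusted p = 2.59e-07, edgeR), and its groups lay far apart. Tcf3 (E2A) fell by 0.62 ± 0.06 on the log2 scale (adjusted p = 1.91e-05). Tcf12 (HEB) fell by 0.36 ± 0.04 (adjusted p = 6.08e-05), the smallest change of these 3. Of the 4 genes for ID proteins, which bind E proteins and keep them from DNA, 3 also fell. Id3 stood at 89.2, 109.6 and 113.7 CPM in GFP and at 43.3, 44.1 and 50.8 CPM in CRE, a log2 fold change of -1.18 ± 0.09 (adjusted p = 5.41e-06). Id1 fell by 0.51 ± 0.11 (adjusted p = 0.00373). Id4, with 10 to 48 counts per library, fell by 1.37 ± 0.29 on the log2 scale (adjusted p = 0.00312). Id2 stood at 5.60 ± 0.685 CPM in GFP and 5.46 ± 0.604 CPM in CRE and was not called (adjusted p = 0.843). Lower levels in CRE were thus measured for all 3 dimer partners and for 3 of the 4 inhibitors.

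Scx was close to the limit of detection. Scx (ENSMUSG00000034161, chr15:76457452-76459458, plus strand) had 28, 9 and 9 counts in GFP and 7, 15 and 13 counts in CRE. GFP replicate 1 alone was high and the other 5 libraries overlapped. The log2 fold change was -0.48 with a 95% confidence interval of -1.69 to 0.73 (adjusted p = 0.494), and 0.36 without GFP replicate 1 (adjusted p = 0.560), so a difference in either direction was not detectable at this depth. Scx lies within Bop1, a ribosome biogenesis gene on the opposite strand, with which it shares no exonic base and which rose by 0.18 ± 0.06 on the log2 scale (adjusted p = 0.0253). The call of Bop1 was lost in DESeq2 and without GFP replicate 2, GFP replicate 3 or CRE replicate 2 (adjusted p of up to 0.0991). Among 11 genes of tendon and its fibrils, 9 were tested, 6 fell and 1 rose, with a median log2 fold change of -0.54. Col14a1, a fibril-associated collagen, fell by 1.90 ± 0.09 (adjusted p = 2.53e-07). Egr2, an immediate early zinc finger factor, rose from 6.72 ± 0.923 to 19.6 ± 2.44 CPM, a log2 fold change of 1.54 ± 0.13 (adjusted p = 6.62e-06). Thbs4, with 5 to 23 counts per library, fell by 1.47 ± 0.39 (adjusted p = 0.0100) and Col1a1, the main collagen of fibroblasts in general, fell by 0.74 ± 0.05. The tendon marker Tnmd had at most 3 counts in any library.

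Snai2 fell and Snai1 did not pass the test. Snai2 (Slug; ENSMUSG00000022676, chr16:14705852-14709385, plus strand) stood at 23.0, 24.8 and 20.5 CPM in GFP and at 17.4, 15.8 and 17.1 CPM in CRE, with no overlap. The means of 22.8 ± 2.15 and 16.7 ± 0.834 CPM gave a log2 fold change of -0.44 ± 0.09 (SE; adjusted p = 0.00184, edgeR). Snai1 (Snail; ENSMUSG00000042821, chr2:167538195-167542814, plus strand) stood at 54.5, 51.7 and 51.2 CPM in GFP and at 48.8, 46.4 and 50.5 CPM in CRE. These groups did not overlap either, but the highest CRE library came close to the lowest control library. The log2 fold change of Snai1 was -0.11 with a 95% confidence interval of -0.23 to 0.01 (adjusted p = 0.111) under TMM scaling and 0.05 with library size alone.

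Zeb2 fell, and Zeb1 did not pass the test on its counts. Zeb2 (ENSMUSG00000026872, chr2:44983632-45117395, minus strand) stood at 323.1, 326.3 and 338.9 CPM in GFP and at 209.7, 196.7 and 214.2 CPM in CRE. The CRE libraries lay far below the control libraries, and the spread within each group was small. The means were 329.4 ± 8.34 and 206.9 ± 9.07 CPM, a log2 fold change of -0.67 ± 0.05 (SE; adjusted p = 2.57e-06, edgeR). Zeb1 (ENSMUSG00000024238, chr18:5591860-5775467, plus strand) stood at 98.0, 109.5 and 102.9 CPM in GFP and at 97.8, 106.7 and 107.0 CPM in CRE. Its groups overlapped, and the log2 fold change was 0.0049 with a 95% confidence interval of -0.12 to 0.13 (adjusted p = 0.952).

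The deposited FPKM values (fragments scaled to transcript length and library size) gave another picture for Zeb1. Zeb1 stood at 27.2, 25.2 and 29.1 FPKM in GFP and at 21.6, 22.6 and 23.1 FPKM in CRE. All CRE libraries lay below all control libraries on this scale. The log2 ratio of group means was 0.17 for counts divided by the library total and -0.27 for FPKM, a difference of -0.44. This difference was lower in only 0.529% of the 12860 genes compared, whose 5th and 95th percentiles were -0.12 and 0.11. The CPM taken over the unadjusted library total was also divided by FPKM, a quotient in kilobases. For Zeb1 it was 3.40, 4.11 and 3.35 in GFP and 4.75, 5.004 and 4.91 in CRE, with no overlap. For Twist1, Snai1, Snai2 and Sox9, each of which has 1 annotated transcript, the quotient was constant over libraries at 1.63, 1.62, 2.02 and 4.13. These quotients match the lengths of those transcripts, which are 1628, 1621, 2021 and 4135 bases. For these 4 genes FPKM was thus the deposited count divided by the library total and the transcript length. The methods of the study name separate tools for counts and FPKM. What sets the quotient of Zeb1, which changed between libraries, was not tested. Zeb1 has 12 annotated transcripts, Zeb2 has 29, Runx1 has 7 and Runx2 has 13, and for Zeb2, Runx1 and Runx2 FPKM and counts differed by 0.01, -0.06 and -0.04 on the log2 scale. With library size alone, the counts called Zeb1 higher (0.17, adjusted p = 0.0281, edgeR), while the fit of log2(FPKM + 1) called it lower (-0.26, adjusted p = 0.00779, limma), as did that of log2(FPKM + 0.1). With the TMM scaling of the main test the counts gave no call (adjusted p = 0.952). The direction thus differed between the units, and the call from counts depended on the scaling. Which Zeb1 transcripts were present was not tested.

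**Figure D4:**
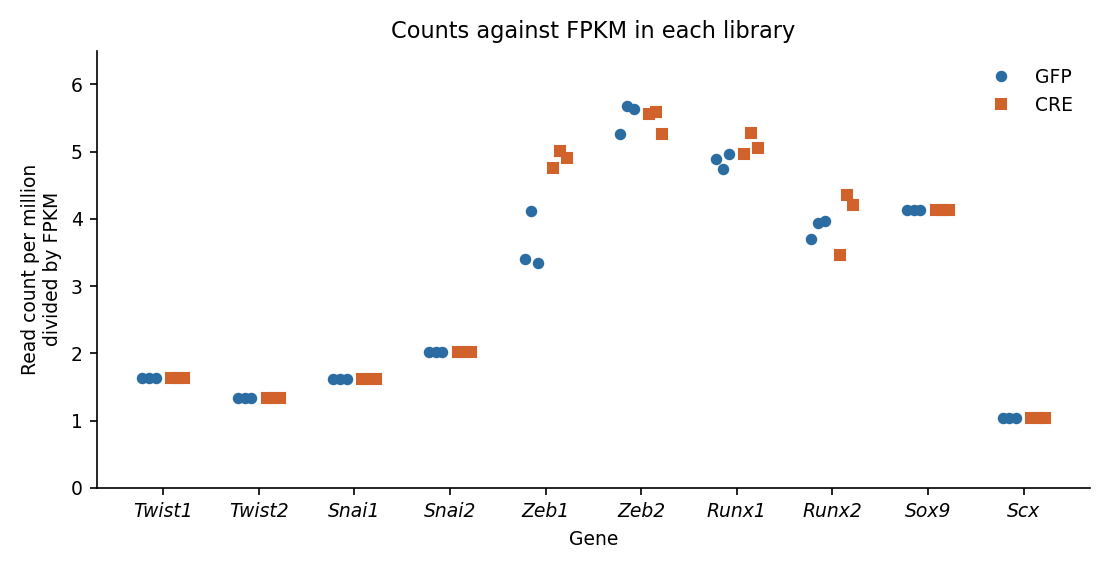
The CPM over the unadjusted library total divided by FPKM (vertical axis, in kilobases) is plotted for each of the 10 genes and each library, GFP as circles and CRE as squares. The points of Zeb1 lie between 3.35 and 4.11 in GFP and between 4.75 and 5.004 in CRE, whereas those of Twist1, Snai1, Snai2 and Sox9 lie on a level line.

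Genes that SNAIL and ZEB proteins act with or act on did not move one way. Of 9 genes for their corepressors, 2 fell, 1 rose and 6 were not called, with a median log2 fold change of -0.03. Ajuba, a LIM adaptor that binds SNAIL proteins, rose by 0.56 ± 0.10 (adjusted p = 0.000735). Ctbp1, a corepressor recruited by ZEB proteins, fell by 0.34 ± 0.05 (adjusted p = 0.00015), and Kdm1a, the histone demethylase LSD1, fell by 0.28 ± 0.05 (adjusted p = 0.000943), a call that was lost with library size alone and in both FPKM fits. Of 18 epithelial genes, only 6 had enough counts to be tested, of which 4 rose and 2 fell, and the median log2 fold change was 1.10. The summed level of the 18 was 26.6 to 27.2 CPM in GFP and 39.4 to 46.2 CPM in CRE. Dsp (desmoplakin) rose from 6.005 ± 0.615 to 16.4 ± 2.44 CPM, a log2 fold change of 1.45 ± 0.13 (adjusted p = 1.28e-05). The keratins Krt18 and Krt19 rose by 1.65 ± 0.33 and 1.79 ± 0.36 on the log2 scale, from means of 0.573 and 0.645 CPM (adjusted p = 0.0021 and 0.00219). Krt19 is also on the epicardial and mesothelial list, 3 of whose 6 tested genes rose, and the part of such cells in these changes was not tested. Cdh3 (P-cadherin) fell from 6.06 ± 0.420 to 1.04 ± 0.212 CPM (log2 fold change -2.53 ± 0.19, adjusted p = 4.33e-06). Cdh1 (E-cadherin), the best known target of these repressors, had 2 to 4 counts in every library and could not be tested. Of 8 structural genes of mesenchymal cells, 6 fell, 1 rose and 1 was not called, with a median of -0.41. Fn1 (fibronectin), Fbn1 (fibrillin-1) and Cdh11 (cadherin-11) fell by 1.14, 0.97 and 0.77, while Itga5, the α5 chain of the fibronectin receptor, rose by 0.74 ± 0.06 (adjusted p = 6.89e-06).

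Runx1 fell to 57.9% of the control level and Runx2 did not pass the test. Runx1 (ENSMUSG00000022952, chr16:92601466-92826149, minus strand) stood at 126.6, 128.6 and 132.4 CPM in GFP and at 79.3, 76.0 and 69.3 CPM in CRE. All CRE libraries lay far below the lowest control library. The means were 129.2 ± 2.94 and 74.9 ± 5.08 CPM, a log2 fold change of -0.79 ± 0.05 (SE; adjusted p = 2.44e-06, edgeR). Runx2 (ENSMUSG00000039153, chr17:44495987-44814797, minus strand) stood at 29.6, 26.6 and 26.6 CPM in GFP and at 25.6, 25.3 and 22.2 CPM in CRE. These groups came close without overlapping, and the log2 fold change of -0.18 had a 95% confidence interval of -0.35 to -0.0052 (unadjusted p = 0.0446, adjusted p = 0.0798 in edgeR's test). Supt3, which overlaps Runx2 on the opposite strand without sharing exonic bases, was not called either (-0.20 ± 0.12, adjusted p = 0.181), except without GFP replicate 1 (adjusted p = 0.0460).

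Runx1 is transcribed from a distal and a proximal promoter, and the counts per gene do not separate their transcripts. Parts of both RefSeq windows (GRCm38.p6) that hold no annotated exon are shown beside that of Snai1, because the Runx1 windows had the highest and the lowest CpG ratio of the windows found, and Snai1 had the second highest. CpG is where mammalian DNA is methylated. Capitals mark CACCTG, the E-box bound by SNAIL and ZEB proteins, or its reverse complement CAGGTG. The proximal Runx1 stretch is at chr16:92697330-92697479 and the distal one at chr16:92826150-92826299, both on the minus strand, and the Snai1 stretch is at chr2:167538045-167538194 on the plus strand.
Runx1 proximal: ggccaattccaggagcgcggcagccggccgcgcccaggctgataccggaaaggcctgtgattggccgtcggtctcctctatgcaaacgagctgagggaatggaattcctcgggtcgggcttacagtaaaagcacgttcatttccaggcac
Runx1 distal: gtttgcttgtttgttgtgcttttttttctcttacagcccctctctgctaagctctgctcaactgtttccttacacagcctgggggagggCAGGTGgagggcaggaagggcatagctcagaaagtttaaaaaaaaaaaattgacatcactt
Snai1: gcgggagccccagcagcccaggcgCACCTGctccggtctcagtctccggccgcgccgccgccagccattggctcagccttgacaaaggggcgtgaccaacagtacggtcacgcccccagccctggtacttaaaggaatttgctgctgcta
In the windows of 300 bases, 250 before and 50 after the start, the ratio of observed to expected CpG was 1.01 in the proximal Runx1 window, higher than in 88.4% of the 13006 windows of tested genes. It was 0.137 in the distal Runx1 window, higher than in 4.01% of windows, and 0.143 in that of Runx2, higher than in 4.31%. Snai1, Twist1 and Twist2 had ratios of 0.925, 0.827 and 0.803, above the median of 0.746 for tested genes, and the 4 Zeb2 windows had 0.420 to 0.690. A window was found for 6 of the 10 genes and not for Snai2, Zeb1, Sox9 and Scx. On both strands, CACCTG was found in 2 of these 10 windows and in 17.4% of the windows of tested genes, TGTGGT, the RUNX motif, in 2 and in 12.2%, and CAGAC, a SMAD motif, in 1 and in 47.5%.

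The partners of RUNX proteins were split. Of 11 genes listed, 10 were tested, 4 fell, 3 rose and 3 were not called, with a median log2 fold change of -0.08. Cbfb, whose product is the obligate partner of all RUNX proteins, stood at 107.8 ± 2.42 CPM in GFP and 100.9 ± 2.48 CPM in CRE and was not called (adjusted p = 0.0902). Runx1t1 (ETO), a corepressor, fell from 8.29 ± 0.610 to 3.72 ± 0.193 CPM, a log2 fold change of -1.16 ± 0.13 (adjusted p = 4.15e-05). Its relative Cbfa2t2 fell by 0.16 ± 0.05 (adjusted p = 0.0325). This call was lost with upper-quartile scaling (adjusted p = 0.0539), in DESeq2 (adjusted p = 0.104) and without any of GFP replicates 1, 2 and 3 or CRE replicates 2 and 3 (adjusted p of up to 0.115). With library size alone the log2 fold change of Cbfa2t2 was 0.0052 (adjusted p = 0.939) and with log2(FPKM + 1) it was -0.0052 (adjusted p = 0.952). Cbfa2t3, with 6 to 22 counts per library, was not called. Among the Groucho-related corepressors, Tle4 rose by 0.59 ± 0.10 and Tle1 by 0.41 ± 0.11, Tle2 fell by 0.86 ± 0.21, and Tle3 was not called at -0.07. The histone deacetylase gene Hdac4 fell by 0.27 ± 0.07 (adjusted p = 0.0113), a call lost with library size alone (adjusted p = 0.234) and in both FPKM fits, and Hdac5 rose by 0.22 ± 0.07 (adjusted p = 0.0235, a call lost in DESeq2 and without any of GFP replicates 2 and 3 or CRE replicates 1 and 2, with adjusted p of up to 0.0895). Runx3 had 0 to 3 counts per library and was not tested.

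Genes of the osteoblast, the cell type that RUNX2 specifies, were mostly near the limit of detection. Of 17 listed, 5 were tested and 5 others were at 0 in every library. Of those tested, 2 fell, 1 rose and 2 were not called, with a median of -0.23. Mmp13 (collagenase-3) had 227, 221 and 291 counts in GFP and 30, 44 and 44 counts in CRE, a log2 fold change of -2.71 ± 0.16 (adjusted p = 7.95e-07). Spp1 (osteopontin) fell by 0.23 ± 0.05 (adjusted p = 0.00364), a call that was lost with library size alone and in both FPKM fits. The osteoblast markers Bglap (osteocalcin) and Ibsp were among the genes at 0.

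Sox9 showed the largest change of the 10 genes. Sox9 (ENSMUSG00000000567, chr11:112782224-112787760, plus strand) stood at 36.0, 38.3 and 38.4 CPM in GFP and at 16.0, 17.002 and 17.9 CPM in CRE. The groups were far apart and the libraries of each group close together. The means were 37.6 ± 1.38 and 16.97 ± 0.945 CPM, a log2 fold change of -1.15 ± 0.07 (SE; adjusted p = 8.03e-07, edgeR), with a 95% confidence interval of -1.30 to -0.999. Of 6 other SOX genes, 2 rose, 0 fell and 4 were not called. Those that rose had few counts. Sox8, from the same subfamily as Sox9, had 26, 15 and 15 counts in GFP and 50, 34 and 51 counts in CRE, a log2 fold change of 1.18 ± 0.31 (adjusted p = 0.00918). Sox11 had 21, 36 and 24 counts in GFP and 67, 61 and 56 in CRE, a log2 fold change of 1.11 ± 0.23 (adjusted p = 0.00267). Sox5 and Sox6, whose products act with SOX9 in cartilage, had log2 fold changes of -0.17 ± 0.09 and -0.37 ± 0.17 and were not called (adjusted p = 0.131 and 0.0914). Sox4, the most abundant at 113.6 ± 8.11 CPM in GFP and 105.4 ± 5.51 CPM in CRE, and Sox10 were not called. None of the 6 was lower at an unadjusted p under 0.05 in edgeR, nor at an adjusted p under 0.05 in DESeq2 or limma-voom, although Sox6 was called lower without GFP replicate 1 (adjusted p = 0.0302).

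Acan, a gene of the cartilage matrix, had the lowest log2 fold change of all tested genes on the 18 lists. Of 15 chondrocyte genes, 7 were tested, of which 4 fell, 2 rose and 1 was not called, with a median log2 fold change of -0.26. Acan (aggrecan), the main cartilage proteoglycan, had 169, 162 and 182 counts in GFP and 22, 15 and 18 counts in CRE. The mean fell from 9.70 ± 0.719 to 0.988 ± 0.179 CPM, a log2 fold change of -3.28 ± 0.17 (adjusted p = 4.96e-07). Col2a1, the cartilage collagen, had 35, 23 and 33 counts in GFP and 8, 8 and 3 in CRE, a log2 fold change of -2.31 ± 0.39 (adjusted p = 0.000715). The groups lay far apart for Acan and did not overlap for Col2a1, whose counts were low. Col11a1 fell from 1075 ± 36.8 to 587.3 ± 12.1 CPM (-0.87 ± 0.04, adjusted p = 3.8e-07). Col11a2, which codes for another chain of the same collagen, rose from 1.24 ± 0.345 to 2.88 ± 0.795 CPM (1.21 ± 0.28, adjusted p = 0.00517). Cartilage genes thus did not move together, and 2 of the 15 were at 0 in every library.

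**Figure D5:**
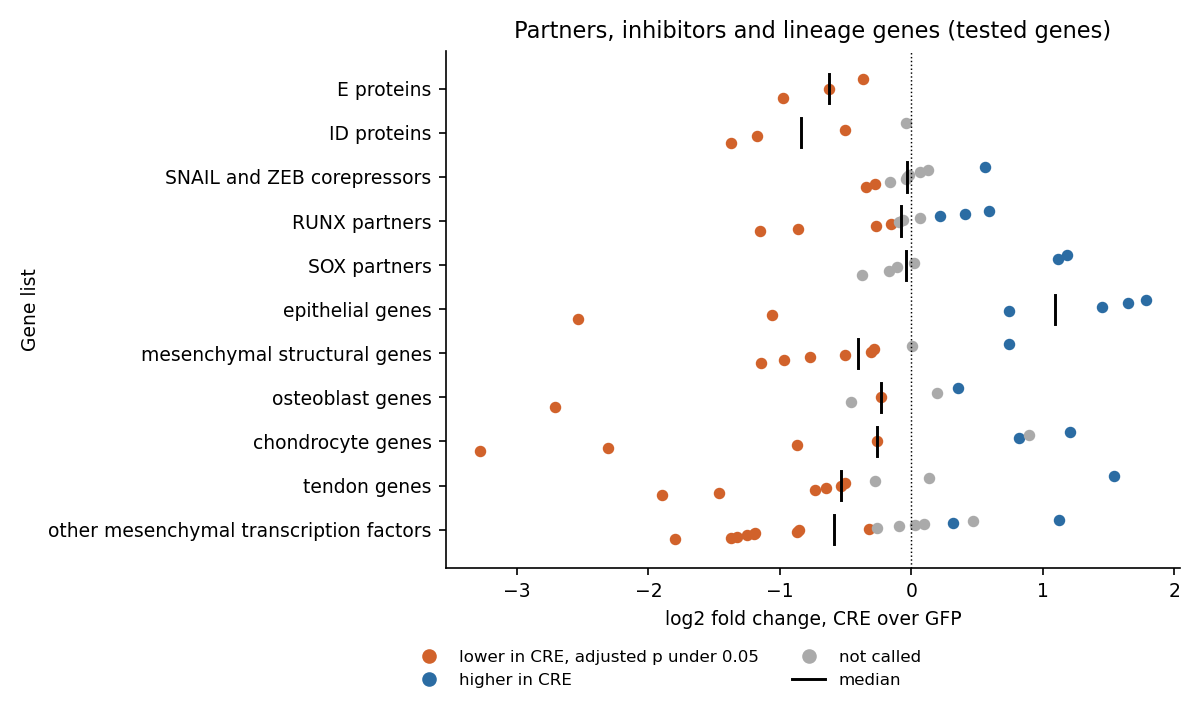
The log2 fold change of CRE over GFP (horizontal axis) is plotted for each tested gene of 11 lists of partners and lineage genes, coloured by call, with a tick at the list median. E proteins lie below 0 throughout, whereas the lists of RUNX partners, epithelial, chondrocyte and osteoblast genes spread to both sides.

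Other transcription factors of mesenchymal cells were more often lower than higher. Of 20 listed, 16 were tested, 9 fell, 2 rose and 5 were not called, with a median log2 fold change of -0.59. Among all tested genes 25.7% were lower and 25.5% higher. Tcf21, a helix-loop-helix factor of epicardium-derived fibroblasts that is also 1 of the fibroblast markers above, had 598, 579 and 741 counts in GFP and 209, 187 and 180 in CRE, a log2 fold change of -1.80 ± 0.09 (adjusted p = 4.21e-07). The homeobox genes Meox1 and Meox2 fell by 1.37 ± 0.23 and 1.25 ± 0.31, and the forkhead gene Foxd1, with 7 to 37 counts per library, fell by 1.33 ± 0.41 (adjusted p = 0.0201). The call of Foxd1 was lost in both FPKM fits, without GFP replicate 3 (adjusted p = 0.101) and without CRE replicate 2 (adjusted p = 0.0745).

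Levels of the 10 genes can be compared with each other only per transcript length, in FPKM. In GFP the order was Zeb2 at 56.4 ± 1.84 FPKM (SD, n = 3), Snai1 at 30.6 ± 0.976, Zeb1 at 27.1 ± 1.94, Runx1 at 25.1 ± 0.622, Twist2 at 11.3 ± 0.719, Snai2 at 10.6 ± 0.999, Twist1 at 9.38 ± 1.15, Sox9 at 8.59 ± 0.327, Runx2 at 6.76 ± 0.689 and Scx at 0.826 ± 0.6596 FPKM. The libraries of Zeb1 and Runx1, Twist2 and Snai2, Snai2 and Twist1, and Twist1 and Sox9 overlapped, so these neighbours were not ordered. In CRE, Zeb2 at 40.03 ± 2.84 FPKM and Snai1 at 31.7 ± 1.29 FPKM headed the order, followed by Zeb1 at 22.5 ± 0.733 and Runx1 at 15.5 ± 1.16 FPKM. Twist1 at 11.7 ± 0.809 FPKM stood above Twist2 at 8.88 ± 1.29 and Snai2 at 8.75 ± 0.399 FPKM, and these last neighbours overlapped. Sox9 at 4.34 ± 0.254 FPKM lay below Runx2 at 6.51 ± 1.14 FPKM in every CRE library, the reverse of their order in GFP. Scx stood at 0.645 ± 0.240 FPKM. These values depend on the transcript length used, and with CPM per kilobase of the longest transcript Snai1 rather than Zeb2 was first in CRE, and Runx2 was last but for Scx in both groups.

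Several of the genes share bases with annotated antisense transcripts that the table does not list. The exonic overlap was 1477 bases for Twist2 with Gm29100, 653 for Zeb2 with Zeb2os, 519 for Runx2 with Runx2os1, 198 for Zeb1 with Gm10125 and 106 for Runx1 with Gm26626. Whether reads were counted by strand is not stated in the sources used here, so the part of antisense transcripts in these counts was not tested. Twist1, Snai1, Snai2 and Sox9 overlapped no annotated gene.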

How the data were processed

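RNA-seq of 6 libraries of cardiac fibroblasts (3 GFP, 3 CRE) was used, with groups and replicate numbers taken from the sample titles. Reads had been trimmed (Trimmomatic), mapped to GRCm38 (HISAT2) and counted per gene (HTSeq-count), and the authors deposited the raw counts, which are not normalized. FPKM per library, which the methods of the study attribute to Cufflinks, was deposited by the authors beside the counts. The authors also deposited a log2 fold change, p-value and false discovery rate from their own test, which were not used. Tool versions and the strand setting are not given in the sources used here, and labels and methods name different library kits.

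Counts were tested in R 4.3.3 with edgeR 4.0.16 (two-sided quasi-likelihood test, TMM scaling, filterByExpr with a minimum count of 10 and a minimum total of 15, 12862 genes). P-values were adjusted over these genes (Benjamini-Hochberg), and a call is an adjusted p under 0.05. Ratios of relatives were log2 ratios of counts within a library after adding 0.5, tested by exact permutation over libraries. Library totals were 17002126 to 20343590. FPKM fits used limma 3.58.1 on log2(FPKM + 1) or log2(FPKM + 0.1). Other alternatives are named in the closing section.

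The 10 genes and the 18 lists of partners, lineage genes and markers were chosen with earlier results of these data known. Genes named are the 10, Tet3, all genes of the E protein, ID protein, RUNX partner and SOX partner lists, the 4 called genes with the largest absolute log2 fold change of each other list, the most abundant gene of each marker list, and overlapping genes. Other genes were named after their values were seen. Results of 2 genes under this rule are not reported here. Coordinates and coding sequences came from GENCODE M21 (21973 of the 22063 identifiers matched) and promoters from RefSeq (GRCm38.p6). Figures were drawn with matplotlib 3.10.9.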

Additional observations from a re-analysis of the deposited data

How the results depend on the processing

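Sox9, Runx1, Zeb2, Twist2 and Snai2 kept their direction and their call in all 16 alternatives run, which were 3 other scalings (RLE, upper-quartile, library size alone), 2 other filters (1 count in all, or 10 counts in each library), 4 other fits (limma-voom, DESeq2 1.42.0, and limma with 1 or 0.1 added to FPKM before the log2), a block for the replicate number, and the omission of each of the 6 libraries. Their log2 fold changes ranged from -1.19 to -0.85, from -0.83 to -0.63, from -0.69 to -0.49, from -0.62 to -0.32 and from -0.52 to -0.25, and the highest adjusted p was 0.0269. With the study's threshold, 3 of the 10 genes were lower. The number called higher was 0 in the main test, 2 with library size alone (Twist1 and Zeb1), 1 with log2(FPKM + 1), 1 with log2(FPKM + 0.1) (Twist1 in both) and 0 to 1 with a library left out, the 1 being Twist1 without GFP replicate 3 (adjusted p = 0.0496). Both FPKM fits also called Zeb1 lower, and the Zeb1 to Zeb2 difference was 0.22 on FPKM. With a library left out, the 4 log2 ratio differences ranged from 0.55 to 0.80 for TWIST, 0.26 to 0.39 for SNAIL, 0.62 to 0.73 for ZEB and -0.67 to -0.56 for RUNX.

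Genes that were not called changed sign as follows, and the cause was not tested. Library size alone and both FPKM fits leave out TMM scaling, so they are not separate checks of a sign. With library size alone the median shift of the log2 fold change over all tested genes was 0.16. With library size alone, log2(FPKM + 1) and log2(FPKM + 0.1), in that order, Snai1 was at 0.051, 0.049 and 0.050, Id2 at 0.12, 0.10 and 0.12, Cbfb at 0.067, 0.080 and 0.082, Tle3 at 0.097, 0.034 and 0.035, Sox4 at 0.054, 0.053 and 0.055, and Smtn at 0.032, 0.029 and 0.031. Zeb1 was at -0.0011 without the filter and at -0.26 and -0.27 on both FPKM scales, Sox5 at 0.0089 and 0.012 and Sox6 at 0.19 and 0.26 on the same scales, and the called gene Cbfa2t2 at 0.0052 with library size alone. With a library left out, Zeb1 ranged from -0.034 to 0.051, Scx from -0.81 to 0.36, Id2 from -0.11 to 0.069, Cbfa2t3 from -0.30 to 0.85 and Sox10 from -0.10 to 0.18. With CPM per kilobase of the longest transcript in place of FPKM, Twist2 took place 8, Snai2 5 and Sox9 7 in GFP, and Snai1 took place 1, Zeb2 2, Runx2 9 and Sox9 8 in CRE. Without the 50 bases after the start, TGTGGT was in 1 window in place of 2. Same-numbered libraries of both groups correlated at 0.046, 0.18 and -0.018 in their deviations from the group means. Libraries with different numbers correlated at -0.12 to 0.071. With 3 libraries a group these values cannot decide whether same-numbered libraries were paired. With the replicate number as a block, the count of calls was 5 lower and 0 higher. In this balanced design the block cannot alter the ratio differences, so it is no check of them. The depth limits Scx, at 7 to 28 counts, and 3 libraries a group cannot take a permutation test below 0.1.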

Other observations

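Genes annotated in the table with terms that at least 1 of the 10 factors carries were also counted, leaving out the 10 factors themselves. Of 39 tested genes of epithelial to mesenchymal transition, 17 (43.6%) were lower and 10 higher in CRE. Of 48 genes of chondrocyte differentiation, 23 (47.9%) were lower and 13 higher, and of 63 genes of cartilage development, 29 (46.0%) were lower and 15 higher. Osteoblast differentiation had 71 tested genes, of which 30 were lower and 20 higher. All 3 tested genes of tendon development were lower. These terms overlap each other, and over all tested genes 25.7% were lower and 25.5% higher. No test of the terms was run.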
